A study of Mus musculus with 5 samples.

Results

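Gamma-aminobutyric acid (GABA) is made, sensed and broken down by the products of a small set of genes, and 8 of them were examined in mouse Neuro-2A (N2A) neuroblastoma cells depleted of Upf1. They were the rows of the count table named Gabbr1, Gabbr2, Gabra3, Gabra4, Gabrb1, Gabrb2, Gad1 and Abat, and were 8 of its 55573 genes. They were taken by name for what they encode, though earlier results of these data were known when they were chosen. The study also measured Gabbr1 mRNA by RT-qPCR, in cultured cortical cells of newborn mice and not in the libraries described here.

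The study asked whether nonsense-mediated mRNA decay (NMD) is hyperactive in the brain of Fmr1-knockout mice. To define transcripts that NMD keeps low in neural cells, it lowered UPF1, the RNA helicase on which NMD depends, by siRNA. It also sequenced RNA bound by phosphorylated UPF1, and took as NMD targets the transcripts found by both approaches. Only the knockdown libraries are described here. N2A is an established neuroblastoma line, grown here in medium with serum, and both groups were transfected with 60 pmol of siRNA. The siCtl group (n = 2, replicates 1 and 3) received the commercial Silencer Negative Control #1, and the siUpf1 group (n = 3, replicates 1, 2 and 3) received an siRNA against Upf1. Polyadenylated RNA was sequenced with strand information, and the files hold unnormalized read counts for each gene. No transgene was present, and a single siRNA against Upf1 was used. The labels do not say whether the libraries of a group came from separate cultures, so every p-value measures only the spread between these libraries.

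GABA acts through 2 kinds of receptor. GABA-A receptors are chloride channels assembled from subunits of the alpha, beta, gamma, delta and rho families, each from its own gene, and they inhibit mature neurons quickly. GABA-B receptors couple to inhibitory G proteins and need both GABBR1, which binds GABA, and GABBR2, which brings GABBR1 to the cell surface and engages the G protein. Glutamate decarboxylase (from Gad1 or Gad2) makes GABA from glutamate, and GABA transaminase (from Abat) breaks it down in mitochondria. NMD degrades mRNAs on which a ribosome stops well upstream of an exon junction, and a Gabbr1 isoform of that kind is annotated.

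The siRNA used for these libraries and the Gabbr1 primers of the study's separate RT-qPCR assays are shown first. The siRNA against Upf1 is printed as its sense strand, which matched Upf1 mRNA (Upf1-201, minus strand of GRCm38) across the junction of exon 8 (chr8:70339743-70339757) and exon 9 (chr8:70339429-70339432). The first run of capitals is bases 2 to 8 of this strand and the second is the bases that pair with the seed of the antisense strand:
Upf1 siRNA: uCAAGGUUccuGAUAAUUa

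The 4 Gabbr1 primers of the study's RT-qPCR assays follow, because they decide which Gabbr1 isoforms such an assay can see. On the plus strand of chromosome 17, primer S lies at chr17:37047623-37047643 and pre-S at chr17:37047489-37047508, both in exon 3 of the principal isoform, Gabbr1-201. The mRNA reverse primer lies at chr17:37048514-37048533 in exon 4, and it gives a 148 bp product with S. The pre-mRNA reverse primer had no full match in any of the 11 annotated Gabbr1 transcripts.
Gabbr1 S: ctcctggacggatatggacac
Gabbr1 mRNA R: gtcggggtcacatcggaaat
Gabbr1 pre-S: atcaggtaccgtggcttgac
Gabbr1 pre-AS: tggtctgcaactgagaatgg

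Gabbr1 has 1 isoform annotated as an NMD substrate, Gabbr1-205 (4204 nt, 21 exons), among its 11 transcripts in GENCODE M21. It lacks the 186 nt exon 4 of Gabbr1-201 (chr17:37048421-37048606). Its 145 nt exon at chr17:37049653-37049797 is a longer form of the 21 nt exon 5 of Gabbr1-201 (chr17:37049777-37049797) with the same end. Gabbr1-205 also lacks the 151 nt exon 15 (chr17:37067214-37067364). Its reading frame of 534 nt ends in exon 5 of its own 21, with 16 exon junctions downstream, the last of them 1962 nt after the stop codon. In Gabbr1-201 the coding length is 2883 nt and the stop codon is in the last exon. The stretch around the stop codon of Gabbr1-205 (chr17:37051087-37051113, plus strand, stop codon in capitals) is shown because this early stop is followed by the downstream junctions:
Gabbr1-205 stop: gctggaggacgtTAAcagccgcagaga

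Primer S matched Gabbr1-201, Gabbr1-205, Gabbr1-209 and a 1460 nt coding isoform in full. The mRNA reverse primer matched the same transcripts except Gabbr1-205, since it lies in the exon that Gabbr1-205 lacks. Neither matched the coding isoform that starts at 37050631, downstream of both, and encodes the shorter form of the subunit. The counts below pool every isoform of a gene and cannot separate Gabbr1-205 from the others.

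**Figure D1:**
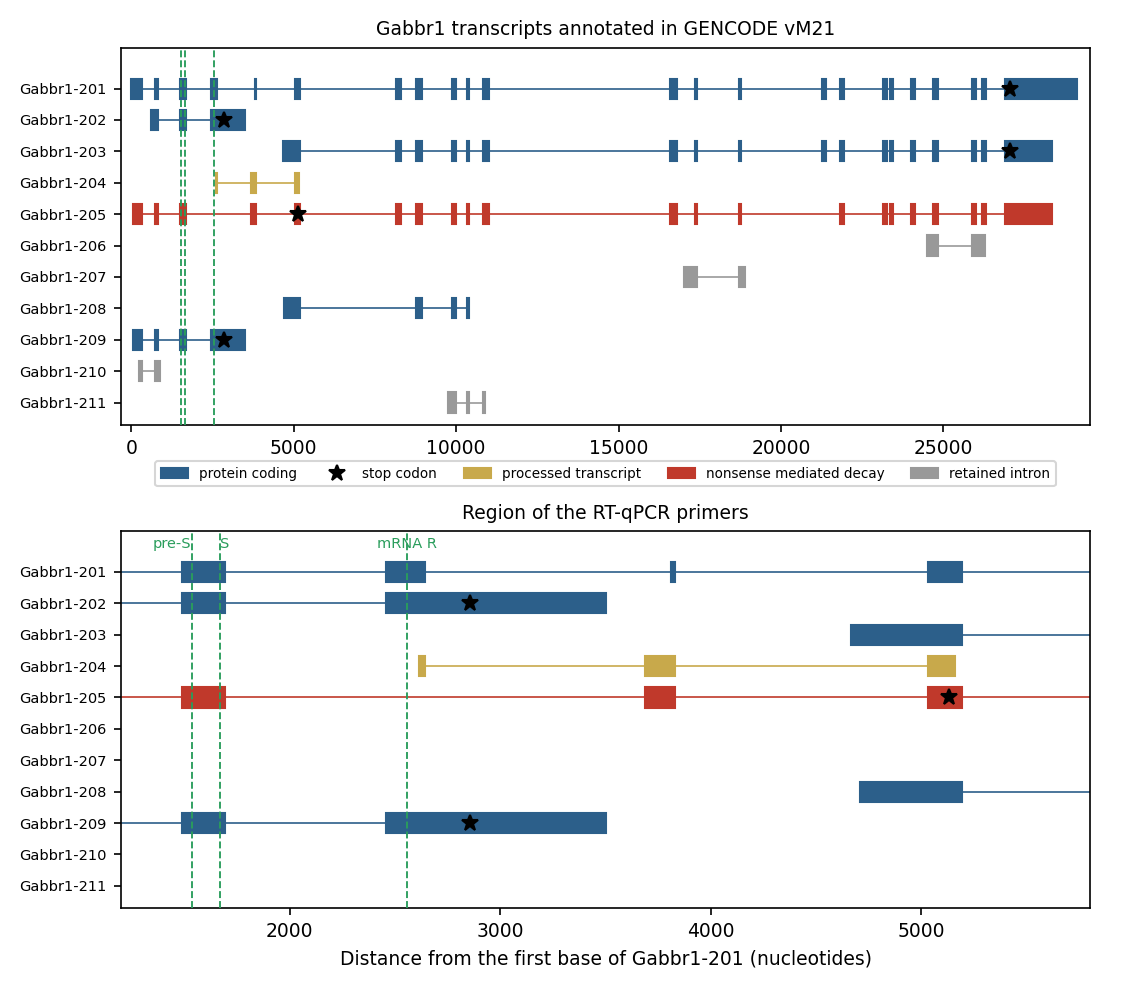
Exons (boxes) of the 11 annotated Gabbr1 transcripts against the distance in nucleotides from the first base of Gabbr1-201, for the whole gene (top) and the region of the RT-qPCR primers (bottom). Colours give the annotated transcript type, stars the stop codons and dashed green lines the primers with a match. The line of the mRNA reverse primer crosses an exon of Gabbr1-201, Gabbr1-209 and the 1460 nt isoform and an intron of Gabbr1-205, whose stop codon is in exon 5 of 21.

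Assigned reads numbered 20402205 to 27717594 per library, and the library of siUpf1 replicate 2 was the smallest. Upf1 had 5217 and 5243 normalized reads in siCtl and 2403, 2496 and 2449 in siUpf1, or -1.10 on the log2 scale (DESeq2 SE 0.051, adjusted p = 7.09e-101). DESeq2 called 6822 of 15191 tested genes at an adjusted p under 0.05 (44.9%), 22.0% higher and 22.9% lower in siUpf1, and counts of GABA genes are read against these shares. The identity of the cells was checked against marker genes. All 10 neuroblast and neuron markers used here were detected, among them Hand2, Gata3 and Dbh, with a summed level of 40206 to 40560 normalized reads in siCtl and 44114 to 46839 in siUpf1. Of these, 6 were called higher and 1, Stmn2, lower. The summed levels of the markers of other cells were 34.0 to 55.6 in siCtl and 25.0 to 32.6 in siUpf1 for 5 astrocyte genes, 462 to 502 and 518 to 548 for 5 oligodendrocyte genes (mostly Mbp), 251 to 263 and 167 to 171 for 6 blood and vessel genes, and 288 to 306 and 223 to 258 for 5 fibroblast genes. The defining genes Slc1a3, Mog, Mag and Lum had no read in any library, and 2 astrocyte, 3 oligodendrocyte, 2 blood and vessel and 1 fibroblast gene had at most 3 reads in each. Aldh1l1, Pecam1 and Pdgfra were called lower in siUpf1. The part of these markers in the results below was not tested.

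Of the 8 GABA genes, 3 were expressed well enough to be tested, and 2 of those, Gabbr1 and Abat, rose in siUpf1. None fell. The third, Gad1, was not called. The remaining 5 (Gabbr2, Gabra3, Gabra4, Gabrb1 and Gabrb2) had at most 2 reads in any library. The median log2 fold change of the 3 tested genes was 0.20 beside 0.00 over all tested genes, and with so few genes no reading is made of 2 called of 3. In bulk RNA, fewer cells of a kind and less RNA per cell cannot be told apart.

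**Figure D2:**
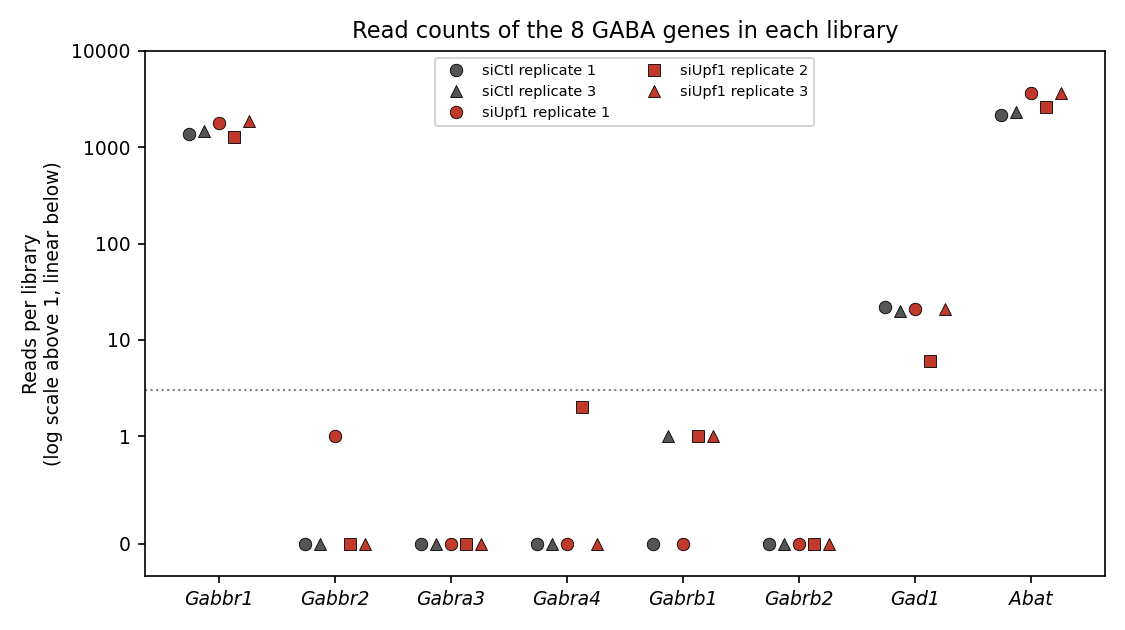
Raw reads of the 8 GABA genes (vertical axis, logarithmic above 1 and linear below) in each of the 5 libraries, with siCtl in grey and siUpf1 in red. The dotted line is 3 reads. Gabbr1 lies between 1268 and 1888 reads, Abat between 2150 and 3645, Gad1 between 6 and 22, and the other 5 genes at 2 or fewer.

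The receptor genes of the GABA-B pair stood far apart. Gabbr1 (ENSMUSG00000024462.17, chr17:37045966-37075067, plus strand) had 1385 and 1454 raw reads in siCtl and 1773, 1268 and 1888 in siUpf1. After normalization for library size these were 1452 and 1372 in siCtl and 1577, 1591 and 1683 in siUpf1. Every siUpf1 library was thus above both siCtl libraries, and 34.3% of all tested genes had that pattern (69.4% had no overlap in either direction). The means were 1412 ± 56.6 (SD, n = 2) and 1617 ± 57.5 (SD, n = 3), and the log2 fold change was 0.20 (SE 0.070, 95% interval 0.06 to 0.33, DESeq2 adjusted p = 0.0133). The rise was smaller than the median absolute change of 0.43 among all called genes. The call depended on single libraries. It was lost without siCtl replicate 1 (log2 0.23, adjusted p = 0.0536), without siCtl replicate 3 (0.15, 0.239) and without siUpf1 replicate 3 (0.17, 0.109), and the adjusted p over all alternatives was between 0.00461 and 0.239.

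Gabbr2 (ENSMUSG00000039809.10, chr4:46662305-46991873, minus strand), the obligate partner of GABBR1 at the cell surface, had 0 and 0 reads in siCtl and 1, 0 and 0 in siUpf1. A limit of 3 reads corresponds to 0.108 to 0.147 CPM (reads scaled to library size). Per kilobase of exon, it is 0.185% to 0.275% of the Gabbr1 level of the same library, and the Gabbr2 reads were below it in all 5 libraries. No ratio of the pair could be compared between the groups, and whether Gabbr2 differed was not detectable at this depth. Limits from read numbers of this kind cover counting error only.

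GABA-B receptors signal through inhibitory G proteins to potassium channels, and the KCTD proteins are their auxiliary subunits. Of 13 genes listed for these roles, 5 had at most 3 reads in every library (Kctd8, Kctd16, Kcnj3, Kcnj5 and Gnai1) and 8 were tested, of which 2 rose, 4 fell and 2 were not called. Their median log2 fold change was -0.12, and of all tested genes 22.0% were called higher and 22.9% lower. Gnao1, the alpha subunit of the abundant neuronal G protein Go, had 4498 and 4305 normalized reads in siCtl and 6773, 7026 and 6831 in siUpf1 (log2 0.64, SE 0.047, DESeq2 adjusted p = 1.23e-41). The gamma subunit gene Gng2 also rose (log2 0.33, adjusted p = 7.56e-05), though not without siCtl replicate 3 (0.23, 0.0601). The inhibitory alpha subunit genes moved the other way, Gnai2 from 4904 and 4945 to 3814, 3937 and 3805 (log2 -0.35, adjusted p = 1.66e-12) and Gnai3 from a mean of 3202 ± 20.8 to 2630 ± 25.2 (log2 -0.28, adjusted p = 6.08e-07). Gnb1, a beta subunit and the most read of these genes, went from 24019 and 23153 to 16260, 17216 and 16370 (log2 -0.51, adjusted p = 2.47e-33). The groups did not overlap for any of Gnao1, Gng2, Gnai2, Gnai3 and Gnb1, a pattern that 69.4% of all tested genes had.

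The effector channel Kcnj9 (GIRK3) had 225 and 226 normalized reads in siCtl and 173, 166 and 167 in siUpf1 (log2 -0.42, adjusted p = 0.0292). Its groups did not overlap, as in 69.4% of all tested genes. The DESeq2 adjusted p was above 0.05 without siUpf1 replicate 1, 2 or 3 (0.0723, 0.0883 and 0.111). Without siCtl replicate 1 or 3, which left 1 siCtl library, the log2 fold change was -0.43 or -0.42. Kcnj6 (GIRK2) had 8 to 26 reads per library (log2 1.19, 95% interval -0.05 to 2.43, adjusted p = 0.116). Kctd12 had 40 to 88 reads (log2 0.04, 95% interval -0.60 to 0.67, adjusted p = 0.94). DESeq2 called neither. For Kcnj6 the siUpf1 libraries were all above both siCtl libraries, as in 34.3% of all tested genes. For this gene edgeR gave an adjusted p of 0.0161, and the alternatives ranged from 0.0161 to 0.211.

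Among the GABA-A subunits, Gabra3 (ENSMUSG00000031343.13, chrX:72432681-72656848) and Gabrb2 (ENSMUSG00000007653.12, chr11:42419757-42629028) had no read in any library. Gabra4 (ENSMUSG00000029211.11, chr5:71569749-71658308) had 2 reads, both in siUpf1 replicate 2. Gabrb1 (ENSMUSG00000029212.11, chr5:71658113-72149037) had 1 read in each of siCtl replicate 3, siUpf1 replicate 2 and siUpf1 replicate 3. Gabra4 and Gabrb1 are head to head and share exonic bases on opposite strands, which the strand-specific counting keeps apart. No fold change is given for any of the 4, since both groups were under the limit of 3 reads.

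Of the 18 GABA-A subunit genes examined, which are not the whole family, 15 had at most 3 reads in every library and 7 of these had none at all. The 18 genes together had 68 and 57 reads in siCtl and 58, 31 and 62 in siUpf1. The 3 genes with an adjusted p were Gabrd, the delta subunit (16 to 35 reads per library), and the rho subunits Gabrr1 (6 to 16) and Gabrr2 (5 to 27). None of them was called (adjusted p = 0.346, 0.373 and 0.985), and the adjusted p was between 0.119 and 0.992 under the alternatives. Their intervals were wide, from -1.53 to 0.36 on the log2 scale for Gabrd and from -2.27 to 0.59 for Gabrr1, so a change was not detectable at this depth. No alpha or gamma subunit gene had more than 3 reads in a library.

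**Figure D3:**
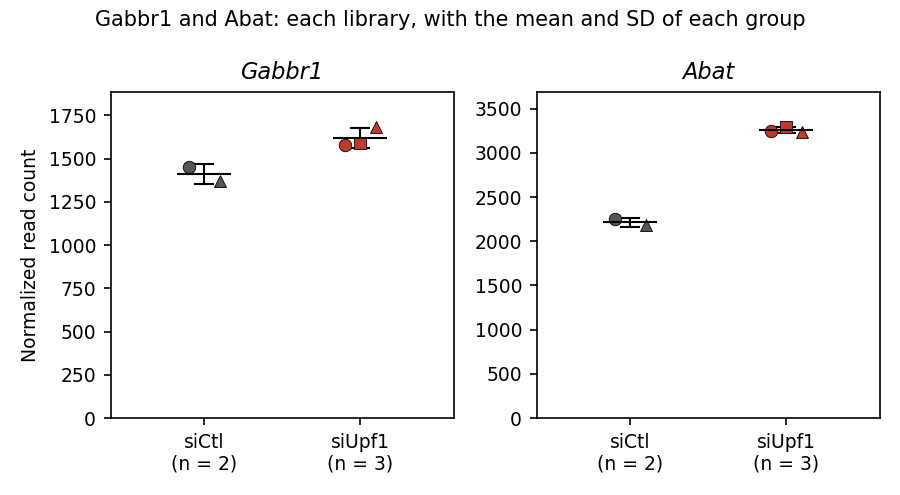
Normalized read counts of Gabbr1 and Abat in each library (circles, squares and triangles for replicates 1, 2 and 3), with the mean and SD of siCtl (n = 2) and siUpf1 (n = 3) and each vertical axis starting at 0. The groups do not overlap in either gene, as in 69.4% of all tested genes. They are closer for Gabbr1 (means 1412 and 1617) than for Abat (2217 and 3255).

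GABA synthesis and breakdown differed in level by a wide margin. Gad1 (ENSMUSG00000070880.10, chr2:70553072-70602014, plus strand) had 22 and 20 raw reads in siCtl and 21, 6 and 21 in siUpf1, which were 23.1 and 18.9 normalized reads in siCtl and 18.7, 7.53 and 18.7 in siUpf1. The siUpf1 replicate 2 library was low and the other 4 were close together. The means were 21.0 ± 2.96 (SD, n = 2) and 15.0 ± 6.45 (SD, n = 3), and the log2 fold change was -0.46 (SE 0.577, 95% interval -1.59 to 0.67, DESeq2 adjusted p = 0.562). At this depth a change in Gad1 was not detectable, and the interval includes both a large fall and a moderate rise. A pseudogene copy of Gad1 in the table, Gad1-ps, had no reads.

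Abat (ENSMUSG00000057880.12, chr16:8513429-8621568, plus strand) was the most expressed of the 8 genes and the clearest change among them. It had 2150 and 2312 raw reads in siCtl and 3645, 2623 and 3625 in siUpf1, or 2254 and 2181 against 3242, 3292 and 3231 after normalization. Replicates within a group were close together and the groups were well apart. The means were 2217 ± 51.3 (SD, n = 2) and 3255 ± 32.5 (SD, n = 3), so that Abat rose by 0.55 on the log2 scale (SE 0.055, 95% interval 0.45 to 0.66, DESeq2 adjusted p = 1.39e-22). The call was kept under all 13 alternatives, with log2 fold changes from 0.51 to 0.58 and adjusted p from 7.7e-23 to 1.43e-06.

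In RPKM, which scales reads to exon length and library size, the siCtl levels were 11.3 ± 0.17 for Abat, 7.21 ± 0.23 for Gabbr1 and 0.109 ± 0.0145 for Gad1 (SD, n = 2), and the siUpf1 levels were 16.9 ± 0.306, 8.38 ± 0.385 and 0.0794 ± 0.0354 (SD, n = 3). The order Abat, Gabbr1, Gad1 held in both groups, with neighbours further apart than their SDs, and the remaining 5 genes were under the limit of 3 reads. Gad1 per 100 Abat, both per kilobase, was 1.04 and 0.877 in siCtl and 0.584, 0.232 and 0.588 in siUpf1. The ratio was lower in every siUpf1 library than in either siCtl library. Its log2 mean was -6.71 ± 0.17 for siCtl (SD, n = 2) against -7.86 ± 0.77 for siUpf1 (SD, n = 3), a difference of -1.15 with p = 0.1 in a two-sided exact permutation test, which is the smallest p that its 10 splits allow. Without siUpf1 replicate 2 the difference was -0.70. The ratio uses the same reads as above, with Abat higher by 0.55 on the log2 scale and Gad1 not called, so it is no separate result.

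The other enzymes of GABA and glutamate metabolism were well represented. All 9 listed genes were tested, with 5 called higher, 1 lower and 3 not called, and a median log2 fold change of 0.18. Among all tested genes, 22.0% were called higher and 22.9% lower. Glul, glutamine synthetase, had 1987 and 1989 normalized reads in siCtl and 2742, 2795 and 2943 in siUpf1 (log2 0.51, SE 0.059, DESeq2 adjusted p = 2.02e-16). Gls2, a mitochondrial glutaminase, had 612 and 626 in siCtl and 914, 927 and 972 in siUpf1 (log2 0.60, SE 0.090, adjusted p = 1.93e-10). The groups did not overlap for either enzyme, as for 69.4% of all tested genes.

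Smaller increases were called for Aldh9a1 (log2 0.18, adjusted p = 0.00342), an aldehyde dehydrogenase that can make GABA from putrescine, for Glud1 (0.16, 0.0147), glutamate dehydrogenase, and for Got2 (0.11, 0.0137), the mitochondrial aspartate aminotransferase. Each of these 3 was lost in at least 1 fit without a library. Aldh9a1 was lost without siCtl replicate 3 (adjusted p = 0.148). Glud1 was lost without siCtl replicate 1, siCtl replicate 3 or siUpf1 replicate 2 (0.178, 0.101 and 0.0927), as was Got2 (0.178, 0.121 and 0.0666). Got1, the cytosolic aspartate aminotransferase, fell, with 3963 and 3765 normalized reads in siCtl and 2683, 3072 and 2762 in siUpf1 (log2 -0.45, adjusted p = 1.08e-11). Aldh5a1, which oxidizes the succinic semialdehyde that ABAT makes from GABA, had a log2 fold change of 0.19 (95% interval -0.09 to 0.46) and was not called (adjusted p = 0.301). Akr7a5, which can reduce the same product, was not called either (log2 0.11, adjusted p = 0.384). Gad2, the second decarboxylase gene, had 7 to 30 reads per library (log2 0.87, 95% interval -0.34 to 2.08, adjusted p = 0.261).

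Transporters that move GABA itself had few reads. Slc32a1, which loads GABA into vesicles, had 2 to 7 reads per library and was not tested. Slc6a11 (GAT3) had none. Slc6a13 (GAT2) had 7 to 30 reads and was not called (log2 -1.25, 95% interval -2.36 to -0.14, DESeq2 adjusted p = 0.0596). It was called lower by edgeR (adjusted p = 0.00587) and with a minimum of 10 counts in 2 libraries (0.0402), and the alternatives ranged from 0.00587 to 0.18. The glutamine transporters that feed glutamate synthesis were abundant and both fell. Slc38a2 had 14855 and 14210 normalized reads in siCtl and 11097, 10358 and 11051 in siUpf1 (log2 -0.42, SE 0.045, DESeq2 adjusted p = 6.28e-20). Slc38a1 had means of 11398 ± 282 and 9757 ± 215 (log2 -0.22, SE 0.042, adjusted p = 4.26e-07). Of the 6 listed transporter genes, 3 were tested, 2 fell, and the median log2 fold change was -0.42. The share called lower among all tested genes was 22.9%.

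Genes that anchor, traffic or modify GABA-A receptors moved in both directions. Of 20 listed, 15 were tested, with 6 called higher, 4 lower and 5 not called, and a median of 0.01. The shares over all tested genes were 22.0% higher and 22.9% lower. Nlgn2, the neuroligin of inhibitory synapses, had 1162 and 1114 normalized reads in siCtl and 1813, 1943 and 1864 in siUpf1 (log2 0.72, SE 0.070, DESeq2 adjusted p = 2.63e-23). Lhfpl4, which links GABA-A receptors to NLGN2, rose by 0.50 on the log2 scale (SE 0.076, adjusted p = 2.51e-10). Also higher were Ubqln1 (log2 0.48), Plcl2 (0.43) and Zdhhc3 (0.42), which act in receptor stability, phosphorylation and palmitoylation, with adjusted p between 1.79e-23 and 1.13e-08. Shisa7, an auxiliary GABA-A receptor protein, was called higher (log2 0.44, adjusted p = 0.0171), but not without siCtl replicate 1, siCtl replicate 3, siUpf1 replicate 1 or siUpf1 replicate 2 (0.112, 0.145, 0.0523 and 0.158).

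The GABA-A receptor-associated protein genes Gabarap and Gabarapl1, whose products also act in autophagy, fell. Gabarap had 2849 and 2877 normalized reads in siCtl and 2169, 2267 and 2098 in siUpf1 (log2 -0.40, SE 0.059, DESeq2 adjusted p = 1.52e-10), and Gabarapl1 had means of 2264 ± 34.4 and 1812 ± 71.5 (log2 -0.32, adjusted p = 1.72e-06). The membrane fusion ATPase gene Nsf fell too (log2 -0.30, adjusted p = 6.36e-06). The motor adaptor gene Trak2 was called lower (log2 -0.30, adjusted p = 0.00128), but not without siCtl replicate 1 (adjusted p = 0.0723). Gphn, whose product gephyrin is the scaffold of inhibitory synapses, had means of 1254 ± 59.1 and 1262 ± 57.0 and a 95% interval of -0.14 to 0.16 around its log2 fold change of 0.01 (adjusted p = 0.942). Gabarapl2, Hap1, Arfgef2 and Clptm1 were not called, with log2 fold changes from -0.09 to 0.05.

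The chloride gradient that sets the effect of GABA-A channels depends on a pair of cotransporters. Slc12a5 (KCC2), which exports chloride, had 353 and 321 normalized reads in siCtl and 583, 571 and 613 in siUpf1 (log2 0.81, SE 0.115, 95% interval 0.58 to 1.03, DESeq2 adjusted p = 1.65e-11). This call was kept under all 13 alternatives, with adjusted p from 9.01e-13 to 0.000109. Slc12a2 (NKCC1), which imports chloride, had means of 1521 ± 30.3 and 1517 ± 47.2 and was not called (log2 0.00, 95% interval -0.14 to 0.13, adjusted p = 0.987).

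Over all 64 pathway genes beside the 8, 22 had at most 3 reads in every library and 40 were tested, of which 14 were called higher, 11 lower and 15 were not called. The remaining 2, Slc32a1 and Plcl1, had few reads and no adjusted p. The shares among all tested genes were 22.0% higher and 22.9% lower, and the median log2 fold change of the 40 genes was 0.03. Without siCtl replicate 3, 9 were called higher and 10 lower.

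**Figure D4:**
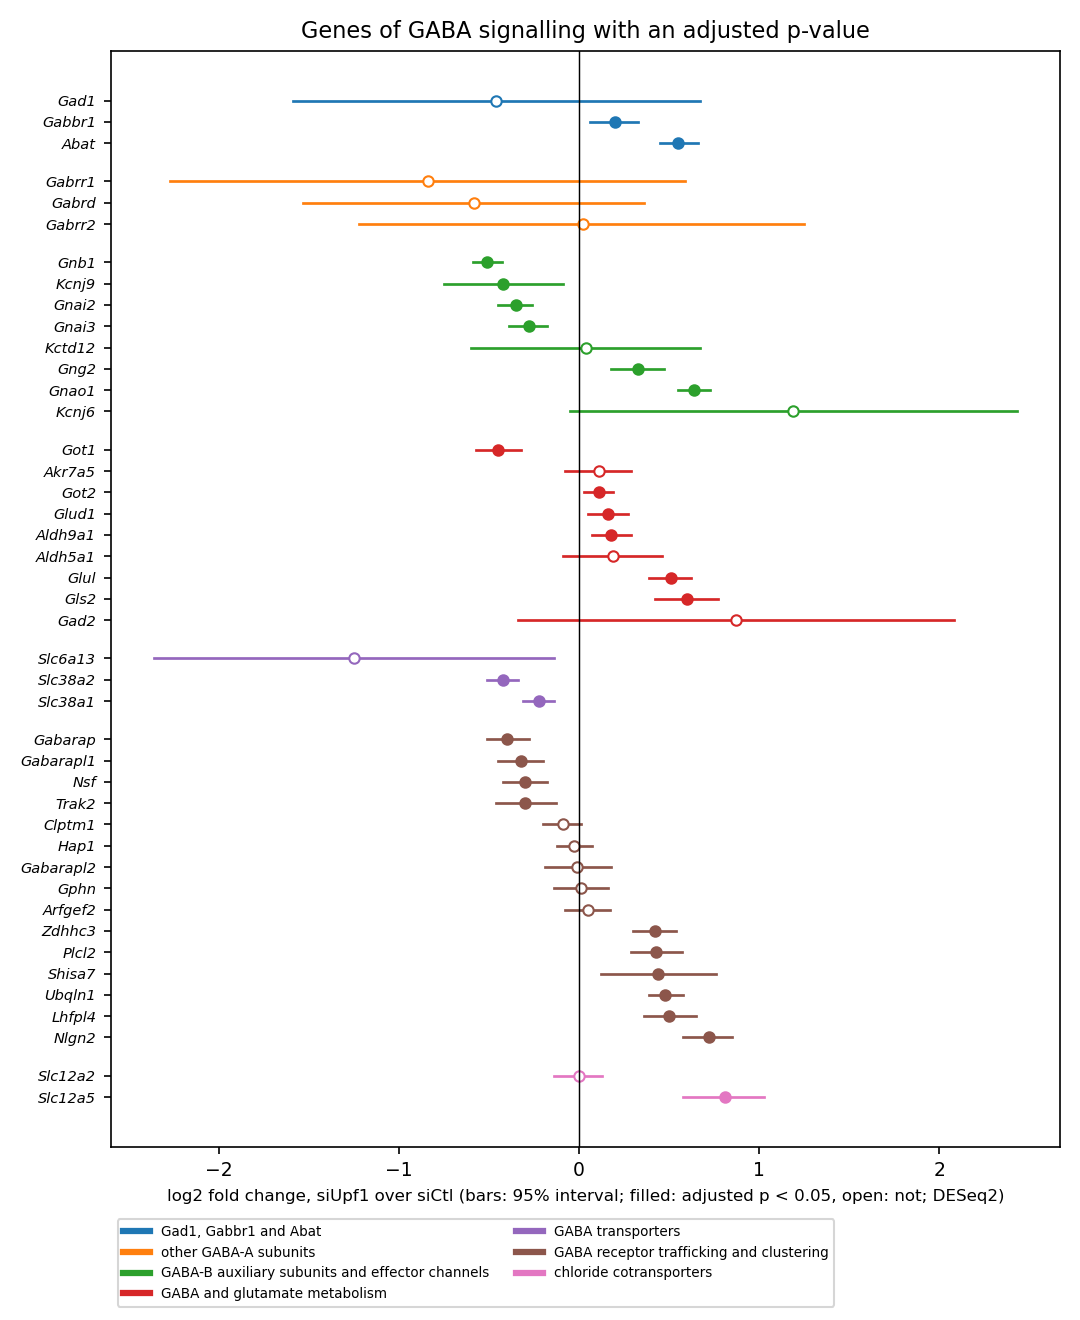
Log2 fold change of siUpf1 over siCtl (horizontal axis) with its 95% interval for every tested gene of the GABA lists, coloured by list, with filled points for genes called by DESeq2 at an adjusted p under 0.05 and open points for the rest. Abat (0.55) lies clear of 0 and Gabbr1 (0.20) close to it, the wide bars belong to genes with few reads such as Gad1, and filled points lie on both sides of 0 among the GABA-B effectors, the metabolic enzymes and the trafficking genes.

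Transcript features that the choice of genes did not use were compared with those of 12616 tested protein-coding genes. The representative 3′ UTR was 2942 nt long for Abat, 2041 nt for Gabbr1 and 1218 nt for Gad1, which are longer than in 84.8%, 73.1% and 54.6% of these genes (median 1062 nt). None of Abat, Gabbr1 and Gad1 had an ATG in its representative 5′ UTR, against 52.7% of genes with one, and none had an exon junction more than 50 nt after its stop codon, against 0.491%. An NMD isoform was annotated for Gabbr1 (1 of 11 transcripts) and Gad1 (1 of 8) but not for Abat (0 of 7), and 28.6% of the genes had one. No isoform was measured here.

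The 3′ UTRs were searched on the mRNA strand for the 7-mers that pair with the siRNA seeds, GATAATT for the antisense strand and AACCTTG for the sense strand, neither of which contains the other. Of the 3′ UTRs of all 12616 genes, 8.12% held the first and 10.4% the second. Neither was present in the representative 3′ UTR of Gabbr1, Abat or Gad1. Gabbr2 had 1 match to GATAATT and Gabra3 had 1 to AACCTTG. Among the tested pathway genes, AACCTTG was found in Slc38a1, Slc38a2, Gnai3, Gnb1 and Kcnj9, which were called lower, in Slc12a5, which was called higher, and in Kctd12, which also held GATAATT and was not called. The shares called higher and lower among all genes with a match were not computed, so no reading is made of these directions. The part of these matches in the changes was not tested.

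The genes with the pattern over the 5 libraries most like that of each expressed gene were found among 10963 genes with a mean of at least 100 normalized reads, as the smallest root-mean-square difference of centred log2 counts. For Abat they were Nrcam (0.010), Zfp651 (0.012) and Arpc1b (0.015), each with a log2 fold change of 0.56. For Gabbr1 they were Dusp10 (0.012), Kif1b (0.012) and Raph1 (0.016), with log2 fold changes of 0.18, 0.21 and 0.23. Their likeness is a description over 5 libraries.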

How the data were processed

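Polyadenylated RNA of N2A cells was sequenced as strand-specific libraries in 2 groups, assigned from the sample titles. The deposited values are raw read counts per gene, not normalized and not pooled. The authors trimmed reads with fastp, mapped them to GRCm38.p6 with STAR (2.7.0f in the labels) and counted reverse-strand exonic reads with featureCounts (Subread 1.6.4) on GENCODE M22 or M25. No column lacked a sample.

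The comparison was DESeq2's Wald test (1.42.0, R 4.3.3) over all 5 libraries and all genes, following the study's methods, with DESeq2's default size factors and filter and p-values adjusted by Benjamini-Hochberg at 0.05. Intervals are the log2 fold change ± 1.96 SE. A gene is listed as not tested where DESeq2 gave no adjusted p. Levels between genes used exonic length from GENCODE M21 (GRCm38), where 99.8% of the identifiers were found, and isoforms, primers and 3′ UTRs (1 representative transcript per gene) came from the same annotation. A gene at 3 reads or fewer was taken as under the limit of detection. Pathway roles are background knowledge.

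The genes, lists and tests were chosen with earlier results of these data known. Named were Upf1, the 8 genes, list genes that were called or had a mean of at least 100 normalized reads and an adjusted p, and the 3 genes most like each expressed one. List genes with lower counts (Gad2, Slc6a13, Slc32a1, Plcl1, Kcnj6, Kctd12, Gabrd, Gabrr1 and Gabrr2, and those without reads), the marker genes and Gad1-ps are outside this rule and were named after their values were seen. Jakmip1 has 2 identifiers, of which the one with more reads was used. The 13 alternatives were edgeR (4.0.16), TMM or total-count size factors, at least 10 counts in 2 libraries, no independent filtering, no mitochondrial genes, a replicate block, removal of length and GC trends, and omission of each library. Some genes are not reported here, and are left out of the list counts. Scripts were tested on simulated data.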

Additional observations from a re-analysis of the deposited data

How the results depend on the processing

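The calls of Upf1, Abat and Slc12a5 held under all 13 alternatives, as did those of other named genes such as Gnao1, Gnb1 and Nlgn2. For 36 named genes, which were Gabbr1, Gad1, Abat and the named list genes, 465 values were computed under alternatives. Upf1, the 5 GABA genes with at most 2 reads and the genes most like each expressed one were not among the 36. Of the values, 436 kept the call or lack of one, 29 were no longer called and none was newly called. No called gene among the 36 changed sign, while Gphn, Gabarapl2, Hap1, Arfgef2 and Slc12a2, not called and near 0, took both signs. Outside the named genes, edgeR called Kcnj6 and Slc6a13 (adjusted p = 0.0161 and 0.00587). The replicate number gave 7 of the 29 as a block, and edgeR's quasi-likelihood test gave none. The labels do not say whether libraries with the same replicate number belong together. The deviations of same-numbered libraries from their group means had r = -0.102 (number 1) and -0.105 (number 3) over 10963 genes. With only 2 siCtl libraries their deviations mirror each other, so these values cannot show whether libraries were paired. With the replicate block, 3919 genes were called (1957 higher and 1962 lower), and of the 8 GABA genes 1, Abat, was called (Gabbr1 adjusted p = 0.206). The calls not kept under the block were Gabbr1, Kcnj9, Aldh9a1, Glud1, Got2, Trak2 and Shisa7. Kcnj9 was also not called without independent filtering (adjusted p = 0.0538). Leaving out each library in turn gave 1 to 2 of the 8 GABA genes called. Without either siCtl library the group has 1 library, whose spread is assumed to be that of siUpf1. The other pathway genes gave 19 to 27 calls under alternatives beside the 25 reported, and 9 to 14 higher calls with a library left out (14 with all). The Gad1 to Abat difference was -1.10 with 1 count added and -1.37 to -0.70 with a library left out. The ratio of Gabbr2 to Gabbr1 could not be formed with 0 Gabbr2 reads in 4 libraries. Depth limits the 5 GABA genes with at most 2 reads and Gad1, and duplicates cannot be recognized in a table of counts.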
